A study of Mus musculus with 36 samples.

Results

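Gene expression in the jejunum was set against that in the duodenum of adult mice, using every array titled jejunum or duodenum. These were 18 of the 36 arrays of a survey that also holds the ileum and the colon. The jejunum group held pools 1 to 3 of the middle of the small intestine, and the duodenum group held pools 1 to 3 of the short piece that follows the stomach. All mice were males of the outbred Hsd:ICR(CD-1) stock, 8 weeks old and fed a standard chow. A pool joined the tissue of 10 mice, so differences between single mice were not seen. Each pool was hybridised to array sets A, B and C, which together hold 36701 probe sets after the controls were put aside. The comparison asks which genes differ between 2 neighbouring parts of one absorbing tube. Because whole segments were used, epithelium, glands, muscle, nerves, blood and any adhering tissue could give RNA. In such bulk samples fewer cells of a type cannot be told apart from less RNA per cell.

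The duodenum receives acid from the stomach and bile and enzymes from the pancreas and liver. Its submucosa holds Brunner's glands, which secrete an alkaline mucus, and the pancreas lies along its wall. Its epithelium is the known main site of iron uptake and of regulated calcium uptake. The jejunum carries most of the remaining absorption of amino acids, peptides, sugars and fat. Enterocytes do this work with digestive enzymes and carriers on the brush border, which faces the food, and with a further set of carriers on the basolateral side, which faces the blood.

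Values are intensity units on a linear scale, given for pools 1, 2 and 3 of each segment in that order. Differences are log2(intensity + 16) in the jejunum minus the duodenum, with the standard error (SE), so a positive value means a higher level in the jejunum. A gene was called when limma gave an adjusted p below 0.05, with p-values adjusted by the Benjamini-Hochberg method over all probe sets. On set A the median intensity was 48.6 to 66.5 in jejunum arrays, against 58.4 to 70.4 in duodenum arrays. The same ranges were 85.8 to 98.0, against 91.2 to 109.4, for set B, and 85.9 to 96.8, against 91.8 to 101.9, for set C. The 18S ribosomal control signal was 47.96 to 289 units in jejunum pools 2 and 3 over all sets and 4898 to 11791 in jejunum pool 1, against 3829 to 25320 in the duodenum. The ratio of 3' to 5' actin signal, a sign of RNA quality, was 1.20 to 1.57 in the jejunum and 1.41 to 2.03 in the duodenum. The part of these control values in any single difference was not tested, and the counts of calls with them in the fit are given below.

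Jejunum pool 1 stood apart from the other jejunum pools. When it was left out, 380 probe sets of set A were called at 2-fold or more, and its own array lay nearer the jejunum than the duodenum in 174 of them (45.8%). The same shares were 45.9% on set B and 46.3% on set C. For each of the other 5 pools, treated the same way, 69.7% to 97.0% of such probe sets placed the pool with its own segment. At 8-fold or more jejunum pool 1 lay with the jejunum in 29 of 31 probe sets on set A, 16 of 17 on B and 12 of 14 on C. The array of set C titled as the third duodenum pool carries jejunum in its source name and was kept as duodenum by its title. With that array left out, 14 probe sets of set C were called at 8-fold or more, and it lay nearer the duodenum in 14 of 14. At 2-fold or more it lay nearer the duodenum in 26 of 41 and nearer the jejunum in 15. Of the 103 called genes that the naming rule gave, Gkn3, Gp2, Cpa1, Slc19a3 and Clca4a lost their calls when that array was counted as jejunum.

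**Figure D1:**
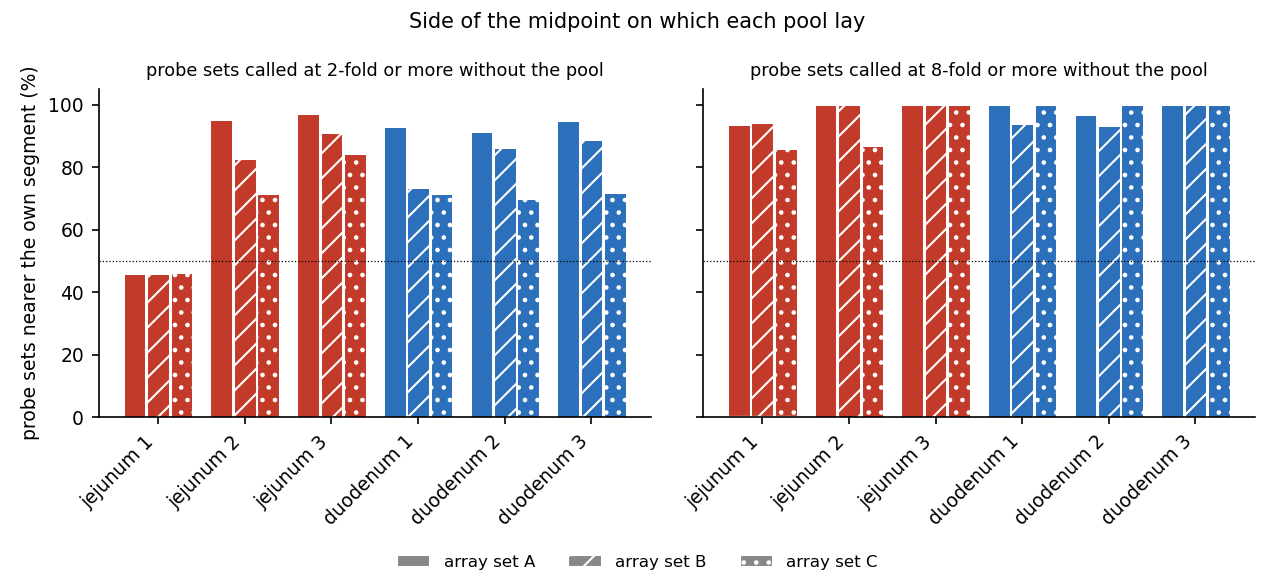
Share of probe sets (y axis, percent) in which a left-out pool (x axis) lay nearer its own segment than the other, among probe sets called at 2-fold or more (left) and 8-fold or more (right) without that pool; red bars are jejunum pools, blue bars duodenum pools, and hatching marks array sets A, B and C. Jejunum pool 1 sits at 45.8% to 46.3% on the left, below the other 5 pools.

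Of the 36701 probe sets, 339 were called (0.924%), with 126 higher and 213 lower in the jejunum. The called share was 1.7% on set A, 0.782% on B and 0.261% on C. With each array centred on its median the split was 115 higher and 128 lower. That centring moved the median difference of all probe sets to 0.07, against -0.06 with the deposited scaling. Falls were larger than rises in these arrays: 35 probe sets were lower by 16-fold or more and 2 were higher by as much. The median called rise was 1.40 and the median called fall -1.73 on the log2 scale. Pools of the 2 segments did not overlap in 5177 probe sets (14.1%), which include all 339 called ones. Leaving out jejunum pool 1 raised the count to 854, with 438 higher and 416 lower. Leaving out any of the other pools lowered it: to 230 and 184 without jejunum pools 2 and 3, and to 245, 212 and 217 without duodenum pools 1, 2 and 3. With the 18S class as a term 208 were called, and 97 were called among pools with high 18S signal, where jejunum pool 1 stands alone for its segment and the spread comes from the other groups. With the actin ratio as a covariate the count was 139.

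**Figure D2:**
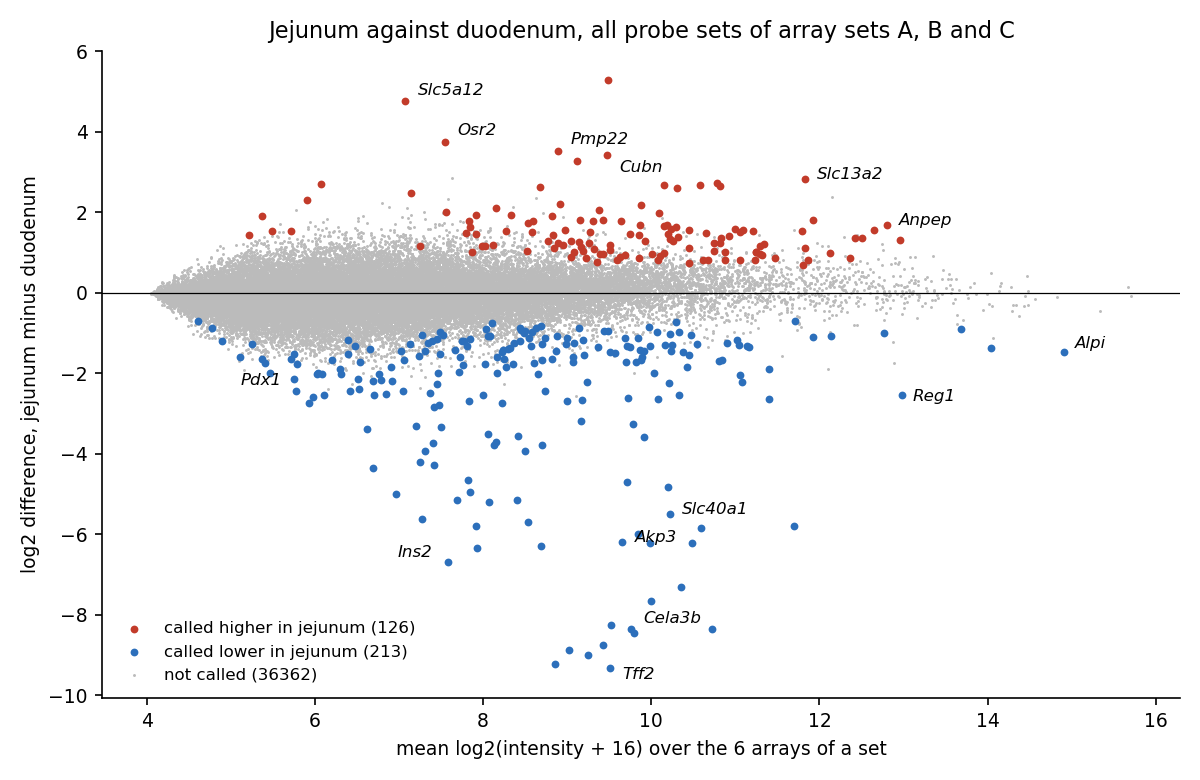
Mean log2(intensity + 16) over the 6 arrays of a set (x axis) against the log2 difference, jejunum minus duodenum (y axis), for all 36701 probe sets; red points were called higher in the jejunum (126), blue points lower (213), grey points were not called. The falls reach -9.34 for Tff2, while Slc5a12, the named gene with the largest rise, lies at 4.76.

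For gene groups, 1 probe set stood for each of 15964 genes. Of these, 102 were called higher (0.639%) and 137 lower (0.858%), with a median difference of -0.05. An unadjusted p below 0.05 was found for 14.4% of them. The counts of each group below can be read against these shares. In all 103 called genes named by the rule the pools of the 2 segments did not overlap, as in every called probe set. Of these, 44 had another probe set on the arrays, and for 31 none of the others was called.

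Of 18 measured amino acid and peptide carriers, 6 were called higher and 0 lower, with a median of 0.49. Slc36a1, which takes up small amino acids together with protons, had 2536, 4429.6 and 4657 units in jejunum pools and 1174, 1435 and 1154 in duodenum pools (difference 1.57 ± 0.22, adjusted p = 0.00117). Slc43a2, a carrier of large neutral amino acids toward the blood, had 5984, 12890 and 10439 units in jejunum pools, against 3604, 3526 and 3645 in duodenum pools (1.37 ± 0.23, adjusted p = 0.00697). In both genes the lowest jejunum pool was pool 1, and it still lay above every duodenum pool. Slc7a7 and Slc7a8 pair with Slc3a2 to carry amino acids across the basolateral membrane. Slc7a8 had 566, 1021 and 1083 units in jejunum pools and 233, 186 and 240.0 in duodenum pools (1.90 ± 0.28). Slc3a2, the shared heavy chain, had 4642, 6604 and 7290.1 units in jejunum pools and 2154, 1854 and 2215 in duodenum pools (1.55 ± 0.19), and Slc7a7 differed by 1.50 ± 0.20. The light chain of the brush-border cystine carrier, Slc7a9, differed by 0.81 ± 0.17 (adjusted p = 0.0376), and this call was lost when any single pool other than jejunum pool 1 was left out. Its heavy chain Slc3a1 differed by 0.24 and the broad neutral carrier Slc6a19 by 0.60, neither called (adjusted p = 0.698 and 0.546). None of the 6 carriers was called among pools with high 18S signal, where their differences were 0.48 to 1.31, and 3 were called with the actin ratio in the fit.

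Of 15 measured peptidases and phosphatases of the brush border and cytosol, 5 were called higher and 2 lower, with a median of 0.76. The 5 were peptidases, which finish protein digestion, and the 2 were alkaline phosphatases. Anpep, aminopeptidase N of the brush border, had 12023, 12816 and 13463 units in jejunum pools and 3668, 3841 and 4414 in duodenum pools (1.68 ± 0.17, adjusted p = 4.59e-05). Its 3 jejunum pools lay close together, pool 1 included. Ace, which removes dipeptides from peptide ends, had 3166, 5446 and 5279 units in jejunum pools and 613, 755 and 742 in duodenum pools (2.66 ± 0.33). Cndp2 and Pepd split dipeptides inside the cell, Pepd those that end in proline. Cndp2 had 1536, 2725 and 2342 units in jejunum pools, against 409, 554 and 673 in duodenum pools (1.97 ± 0.21), and Pepd had 1335, 1810.2 and 1419 units in jejunum pools, against 672, 528 and 639 in duodenum pools (1.28 ± 0.19). Dpep1, a dipeptidase on the membrane, differed by 1.23 ± 0.24 and lost its call without jejunum pool 2 or 3 or duodenum pool 2 or 3 (adjusted p up to 0.125). The phosphatase Akp3 had 269, 29 and 49.3 units in jejunum pools and 5561, 6244 and 9274 in duodenum pools (-6.19 ± 0.58). Here jejunum pool 1 was the highest jejunum pool and lay far below every duodenum pool. Alpi had 18095, 21197 and 16570 units in jejunum pools, against 40842, 54263 and 61075 in duodenum pools (-1.47 ± 0.20). Among pools with high 18S signal 1 gene of this list was called higher and 1 lower, and without jejunum pool 1 the counts were 5 and 3. Cdhr5, a protocadherin that links the tips of microvilli, was the 1 called of 16 genes of epithelial structure, at 0.68 ± 0.14, and held its call in 1 of the 6 fits that left out a pool. Enteropeptidase, Tmprss15, which starts the activation of pancreatic proteases, differed by -1.43 without a call (adjusted p = 0.265).

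**Figure D3:**
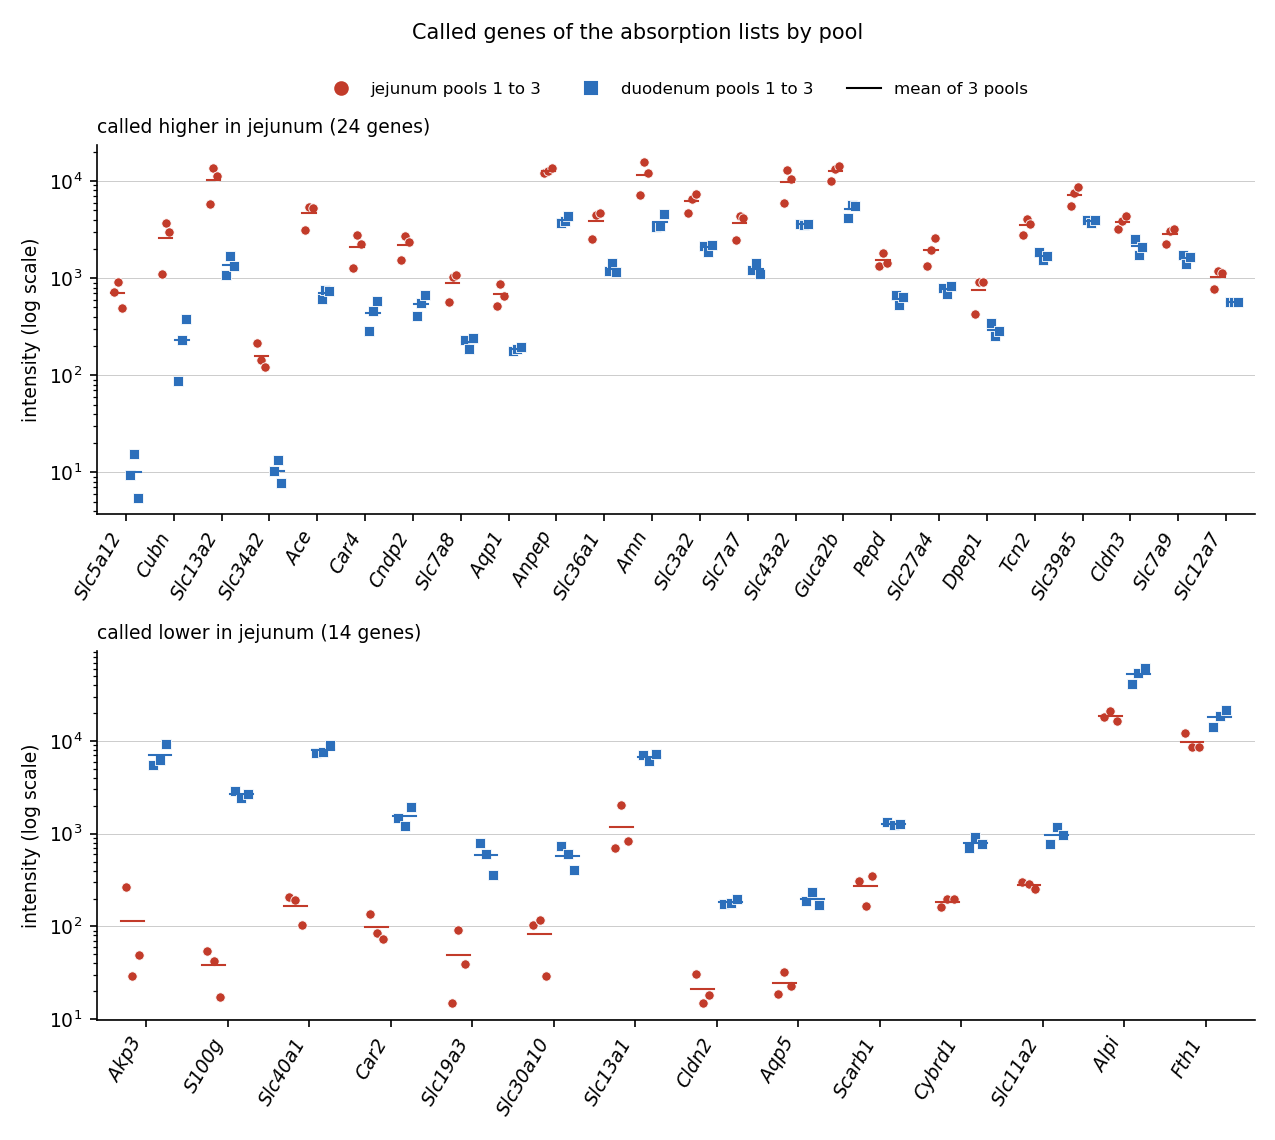
Intensity (y axis, log scale) of the 38 called genes of 11 lists on uptake and transport, with 24 called higher in the jejunum (top) and 14 called lower (bottom); red circles are jejunum pools 1 to 3, blue squares duodenum pools 1 to 3, from left to right, and bars mark the means. The pools of the 2 segments do not overlap in any of the 38 genes, as in all 339 called probe sets (14.1% of all probe sets).

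Slc5a12 and Slc13a2, 2 carriers of organic acids, and 3 genes of vitamin B12 handling were called higher in the jejunum. Of 22 measured genes of organic acid, vitamin and nucleoside transport, 5 were called higher and 1 lower, with a median of 0.22. Slc5a12, a sodium-coupled carrier of lactate and related acids, had 716, 909.9 and 490.4 units in jejunum pools and 9.4, 15.6 and 5.5 in duodenum pools (4.76 ± 0.51, adjusted p = 6.52e-05). Its duodenum values all lay far below the median of set B, 100.4 units, while jejunum pools were well above it. Slc13a2, a sodium-coupled carrier of citrate and succinate, had 5832, 13725 and 11225 units in jejunum pools and 1077, 1689 and 1332 in duodenum pools (2.83 ± 0.28). Cubilin, Cubn, is the receptor for vitamin B12 bound to intrinsic factor, and Amn is the partner that anchors it in the membrane. Cubn had 1103, 3703 and 2954 units in jejunum pools, against 88.3, 231 and 380.2 in duodenum pools (3.41 ± 0.44, adjusted p = 0.000634). Amn had 7095, 15600 and 11994 units in jejunum pools, against 3324, 3470.2 and 4551 in duodenum pools (1.55 ± 0.24, adjusted p = 0.00246). For both, jejunum pool 1 was the lowest of the jejunum pools, and without it the differences were 3.94 and 1.86. A second, uncalled Cubn probe set differed by -0.43. Transcobalamin, Tcn2, which carries the vitamin in blood, had 2811, 4054 and 3605 units in jejunum pools and 1860.5, 1546 and 1706 in duodenum pools (1.01 ± 0.16). Ileum means were 3003 units for Cubn and 5238 for Amn. Without jejunum pool 1 the list had 6 called higher and 1 lower, and among pools with high 18S signal 2 and 1. In the opposite direction, the thiamine carrier Slc19a3 had 14.8, 91.5 and 39.8 units in jejunum pools and 800.3, 601 and 355 in duodenum pools (-3.33 ± 0.48, adjusted p = 0.00304). With the array of doubtful label counted as jejunum the difference was -2.96 (adjusted p = 0.093), and another Slc19a3 probe set differed by -1.18 without a call.

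Of 17 measured genes of iron handling, 0 were called higher and 4 lower in the jejunum, with a median of -0.36. Cybrd1 reduces ferric iron at the brush border, Slc11a2 brings ferrous iron into the cell, and Slc40a1, ferroportin, releases it to the blood. Cybrd1 had 162, 197 and 199 units in jejunum pools and 706, 916 and 776 in duodenum pools (-2.01 ± 0.27, adjusted p = 0.000689). Slc11a2 had 303, 286 and 253 units in jejunum pools and 768, 1189 and 980.2 in duodenum pools (-1.73 ± 0.25, adjusted p = 0.00157). Slc40a1 had 208, 193 and 104 units in jejunum pools and 7407, 7693 and 8952 in duodenum pools (-5.49 ± 0.32, adjusted p = 4.01e-08), with an ileum mean of 448. For each of these called genes every jejunum pool lay below every duodenum pool, as for all 213 probe sets called lower. A second Slc11a2 probe set differed by 0.57 in the other direction without a call. The ferritin heavy chain, Fth1, stores iron in the cell. It had 12332, 8509 and 8591 units in jejunum pools, against 14289, 18628 and 21652 in duodenum pools (-0.89 ± 0.19), a call lost without jejunum pool 2 or 3 or duodenum pool 2 or 3 (adjusted p up to 0.19). Outside the list, Ncoa4, which brings ferritin to the lysosome, had 357, 294 and 184 units in jejunum pools and 2154, 2824 and 3276 in duodenum pools (-3.26 ± 0.25), while its other probe set differed by 0.01. Without jejunum pool 1 the iron list again had 4 called lower, and among pools with high 18S signal 2. Hephaestin, Heph, the oxidase that works with ferroportin, differed by -0.12 (adjusted p = 0.942).

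Single genes of calcium, zinc and manganese handling were called as well. S100g, the calcium-binding calbindin of enterocytes, had 54.1, 42.5 and 17.4 units in jejunum pools and 2878, 2398 and 2702 in duodenum pools (-5.69 ± 0.31, adjusted p = 4.86e-08). It was 1 of 2 called lower, with 0 higher, among 11 measured genes of calcium, magnesium and vitamin D handling, whose median was -0.47. The other was Cldn2, a claudin that forms a cation pore between cells. Cldn2 had 31, 14.9 and 18.2 units in jejunum pools and 174, 178 and 199.7 in duodenum pools (-2.44 ± 0.47), and its call was lost without any single pool other than jejunum pool 1 (adjusted p up to 0.106). The vitamin D receptor Vdr differed by -0.66 (adjusted p = 0.0826). Slc30a10, a manganese exporter counted in the zinc list, had 104, 118 and 29.4 units in jejunum pools and 729.9, 602 and 407 in duodenum pools (-2.69 ± 0.47), and lost its call without duodenum pool 1 (adjusted p = 0.0555). Slc39a5, a zinc carrier of the basolateral side, had 5466, 7475 and 8675 units in jejunum pools, against 3989.7, 3659 and 3997 in duodenum pools (0.86 ± 0.18), a call that held without jejunum pool 1 and not without any other pool. Of the 14 measured zinc genes these 2 were the ones called, and neither was called with the 18S class as a term, with the actin ratio as a covariate or among pools with high 18S signal.

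Among 20 measured genes of inorganic ion transport, 3 were called higher and 1 lower, with a median of -0.03. The sulfate carrier Slc13a1 had 709.7, 2015 and 844 units in jejunum pools and 7012, 6079 and 7259 in duodenum pools (-2.65 ± 0.36, adjusted p = 0.000777), with an ileum mean of 4324. The phosphate carrier Slc34a2 had 213, 142 and 123 units in jejunum pools and 10.3, 13.3 and 7.7 in duodenum pools (2.70 ± 0.33, adjusted p = 0.000424), with an ileum mean of 2344. The duodenum level of Slc34a2 lay below the median of set A, 66.3 units. Uroguanylin, Guca2b, a peptide hormone that drives chloride secretion through a receptor on the brush border, had 10076, 13362 and 14346 units in jejunum pools and 4145, 5619 and 5526 in duodenum pools (1.30 ± 0.18, adjusted p = 0.000977). The potassium-chloride carrier Slc12a7 differed by 0.81 ± 0.17 (adjusted p = 0.0425), and this call held in 1 of the 6 fits that left out a pool, the one without jejunum pool 1.

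Each of the families that move acid, water and ions between cells held 1 gene called in each direction. Carbonic anhydrases interconvert carbon dioxide and bicarbonate, Car2 in the cytosol and Car4 on the outer face of the membrane. Car4 had 1284, 2781 and 2221 units in jejunum pools and 285, 455 and 586 in duodenum pools (2.19 ± 0.29, adjusted p = 0.000745), while another Car4 probe set differed by 0.31 without a call. Car2 had 136, 85.8 and 74 units in jejunum pools and 1481, 1219 and 1954 in duodenum pools (-3.78 ± 0.23, adjusted p = 1.04e-07). The other 14 of 16 measured anhydrases were not called and differed by -1.53 (Car13) to 0.28. Aquaporins are water channels, and Aqp5 is known from secretory glands. Aqp1 had 515, 861 and 662 units in jejunum pools and 179.7, 186 and 197 in duodenum pools (1.74 ± 0.20, adjusted p = 0.000201), though a second Aqp1 probe set differed by -0.19. Aqp5 had 18.5, 32.7 and 22.7 units in jejunum pools and 187, 236 and 170.0 in duodenum pools (-2.40 ± 0.40, adjusted p = 0.00528). Of 17 measured claudins and tight-junction genes, Cldn2 fell as given above and Cldn3, a claudin that seals the junction, was higher by 0.85 ± 0.17 (adjusted p = 0.0236), a call lost without jejunum pool 2 or 3 or duodenum pool 2 or 3.

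In the lists on lipid absorption, cholesterol, bile acids and sugar, 5.56% to 10% of measured genes were called, against 1.5% of all genes. Of 24 measured genes of lipid absorption, 1 was called higher and 1 lower, with a median of 0.30. The fatty acid carrier Slc27a4 had 1328, 1966 and 2588 units in jejunum pools and 797, 680.4 and 839 in duodenum pools (1.28 ± 0.23), and lost its call without jejunum pool 2 or 3 or duodenum pool 2 (adjusted p up to 0.0764). Scarb1, a receptor that exchanges cholesterol with lipoproteins, had 310.0, 166 and 350.5 units in jejunum pools and 1348, 1238 and 1271 in duodenum pools (-2.22 ± 0.23). Core genes of chylomicron assembly were not called, with differences of 0.10 for Mttp, 0.40 for Apob and 0.15 for Apoa4. Stard4, which moves cholesterol between membranes, had 1417, 3363 and 2253 units in jejunum pools and 813, 669 and 620.0 in duodenum pools (1.64 ± 0.27), while the middle one of its probe sets differed by -0.04. Of 18 genes of the cholesterol list it was the 1 called. Cyp27a1, a sterol hydroxylase of bile acid synthesis, differed by 1.20 ± 0.20 and was the 1 called of 10 bile acid genes, with another probe set at -0.27. Of 13 sugar genes 1 was called, the gluconeogenic enzyme Pck1, with 1375, 1090 and 931 units in jejunum pools and 661, 627 and 472 in duodenum pools (0.93 ± 0.19). Its call was lost without jejunum pool 1 or 2 or duodenum pool 2 or 3. The glucose carrier Slc5a1 differed by 0.46 (adjusted p = 0.296), the fructose carrier Slc2a5 by 0.06 and sucrase-isomaltase, Sis, by -0.08.

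In the lists on cytochromes P450, conjugation and antioxidant enzymes, 10.3%, 9.3% and 12.5% of measured genes were called, against 1.5% of all genes. Of 29 measured cytochromes P450, 3 were called higher and 0 lower, with a median of -0.05. Cyp2b10, an enzyme known to be induced by foreign compounds, had 5031, 4854 and 6211 units in jejunum pools and 2138, 2111 and 3299.5 in duodenum pools (1.11 ± 0.23), Cyp2d26 differed by 0.98 ± 0.18 and Cyp4f13 by 1.80 ± 0.35. None of the 3 was called without jejunum pool 2 or 3 or duodenum pool 1 or 2, while 5 of the family were called without jejunum pool 1. Of 43 conjugating and related enzymes, 1 was called higher and 3 lower, with a median of -0.04. Gsta4, a glutathione transferase for products of lipid oxidation, had 174, 249 and 320.4 units in jejunum pools and 591, 740.1 and 1088 in duodenum pools (-1.64 ± 0.25, adjusted p = 0.00323). The sulfotransferase Sult1c2 had 5.9, 7.2 and 29.7 units in jejunum pools, against 166, 113 and 178 in duodenum pools (-2.54 ± 0.40). Ugt2b5 differed by -1.35 ± 0.27, and Sult2b1, a sulfotransferase for cholesterol, differed by 0.90 ± 0.20. Both of these calls were lost without any single pool other than jejunum pool 1. Of 16 antioxidant enzymes 2 were called, both lower, and both return oxidised thiols to their reduced form. Gsr, glutathione reductase, had 395, 522 and 361 units in jejunum pools and 1161, 1138 and 1318 in duodenum pools (-1.48 ± 0.20, adjusted p = 0.00105). Txnrd1, thioredoxin reductase, had 808, 582 and 282 units in jejunum pools and 2114, 1458 and 1462 in duodenum pools (-1.66 ± 0.29), and lost its call without duodenum pool 1 (adjusted p = 0.0511). Probe sets of these families can bind transcripts of relatives.

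In the lists on the urea cycle and on purine breakdown, 12.5% and 8.33% of measured genes were called, against 1.5% of all genes. Of 16 genes of the urea cycle, arginine and polyamines, 2 were called lower, Cps1 and Azin1. Cps1, which makes carbamoyl phosphate in mitochondria, had 3336, 2660.4 and 2051 units in jejunum pools and 5214, 5757 and 6173 in duodenum pools (-1.11 ± 0.21). Azin1, which relieves the block on ornithine decarboxylase, differed by -1.48 ± 0.28. Cps1 lost its call without jejunum pool 2 or 3 or duodenum pool 2 or 3, and Azin1 without jejunum pool 3 or duodenum pool 1 or 2. Of 12 genes of purine breakdown and nucleases 1 was called. This was Dnase1, an enzyme that digests DNA, with 3676, 4985 and 3101 units in jejunum pools and 878, 568 and 409 in duodenum pools (2.67 ± 0.43). Another Dnase1 probe set differed by -0.04.

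Large falls were seen in products of glands and of the pancreas. Of 15 measured genes of the gastric and Brunner gland list, 0 were called higher and 5 lower. Tff2, a trefoil peptide of mucus and a known product of Brunner's glands, had 31.4, 10.5 and 2.9 units in jejunum pools and 15278, 19093 and 21876 in duodenum pools (-9.34 ± 0.41, adjusted p = 4.33e-09). Gkn3, a gastrokine, had 53.9, 46.3 and 173 units in jejunum pools and 46645, 29031 and 21071 in duodenum pools (-8.35 ± 0.44). With the array of doubtful label counted as jejunum Gkn3 differed by -6.66 (adjusted p = 0.0971), and another, uncalled Gkn3 probe set differed by -0.35. Tff1 and Gkn2 shared a pattern among the duodenum pools. Gkn2 had 280.2, 285 and 228 units in jejunum pools and 5001, 1090 and 6766 in duodenum pools (-3.59 ± 0.49, adjusted p = 0.00079), and Tff1 had 503, 277 and 509.9 units in jejunum pools, against 3786, 869 and 5827 in duodenum pools (-2.65 ± 0.50, adjusted p = 0.0172). Duodenum pool 2 was the lowest for both, still above the jejunum pools, and Tff1 lost its call without jejunum pool 2 or 3 or duodenum pool 1 or 3. The surface mucin Muc1 had 79.4, 25.9 and 49.2 units in jejunum pools, against 392, 434 and 493 in duodenum pools (-2.83 ± 0.32). Among genes of the acid- and pepsin-secreting stomach the probe sets that stood for the genes were not called. Atp4a, a chain of the proton pump, had 191, 65.7 and 189 units in jejunum pools and 155, 253 and 118 in duodenum pools (-0.28), and its pools overlapped. Atp4b, the other chain, had 13.5, 9.2 and 8.9 units in jejunum pools and 20.2, 47.2 and 34.3 in duodenum pools (-0.88, adjusted p = 0.156), all below the median of the set and not overlapping. For the protease Ctse the brightest probe set differed by 0.07, while a dimmer one, with 61.5, 47.4 and 46.8 units in jejunum pools and 485, 268 and 715 in duodenum pools, was called lower (-2.80 ± 0.38). The intrinsic factor gene Cblif differed by -0.15, the pepsinogen Pgc by -0.97 and Gkn1 by -0.06. The summed level of the 15 genes was 3048 to 3532 units in the jejunum and 53287 to 73689 in the duodenum. Every pool lay at or below the set median for 6 genes in the jejunum and 4 in the duodenum. Outside this list, Wfdc18, a secreted protease inhibitor, had 21.8, 9.9 and 13 units in jejunum pools and 359.6, 258 and 293 in duodenum pools (-3.38 ± 0.32).

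Of 24 measured genes of the exocrine pancreas, 0 were called higher and 17 lower, with a median of -4.99. Cpb1, a carboxypeptidase, had 21.6, 28.8 and 27.8 units in jejunum pools and 13447, 12651 and 12483 in duodenum pools (-8.26 ± 0.47), while another Cpb1 probe set differed by -0.75 without a call. Cela2a, an elastase, had 54.2, 46.6 and 69.3 units in jejunum pools, against 12044, 16445 and 15400 in duodenum pools (-7.65 ± 0.34). The lipase Cel, active with bile salts, had 82.1, 77.3 and 149 units in jejunum pools and 8498, 6819.8 and 6872 in duodenum pools (-6.00 ± 0.24). The duodenum pools lay close together in these genes, and all jejunum pools lay far below them. Proteins of the zymogen granule fell as well: syncollin, Sycn, had 18.6, 29.4 and 38.7 units in jejunum pools, against 2015, 1405 and 1480.1 in duodenum pools (-5.21 ± 0.30), and Gp2 had 31.9, 25.9 and 34.9 units in jejunum pools, against 5656, 3752 and 2235 in duodenum pools (-6.28 ± 0.55). Gp2 differed by -5.23 with the array of doubtful label counted as jejunum (adjusted p = 0.0864), and 15 genes of the list were then called. Without jejunum pool 1 the list again had 17 called lower, and among pools with high 18S signal 15. Falls were smaller for Clps, the colipase, at -2.05 ± 0.22, for Klk1, a kallikrein, at -1.59 ± 0.22, and for Ctrl, a chymotrypsin-like protease, at -2.55 ± 0.33. Clps still had 1168, 946 and 974 units in jejunum pools. The acinar cell's transcription factors were not called, but their probe sets lay below the median of their set in both segments, so that a change may not be visible. Ptf1a read 48.1, 38.9 and 36.9 units in jejunum pools and 56, 51.1 and 35.2 in duodenum pools (-0.14), Bhlha15 differed by -0.01 and Rbpjl by -0.15. The probe set that stood for pancreatic amylase, Amy2a5, differed by 0.05 and was dim in both segments. One of 2 probe sets shared by several amylase genes, chosen after its values were seen, had 4.4, 3.7 and 0.9 units in jejunum pools and 10086, 12080 and 11977 in duodenum pools (-9.23 ± 0.55). The summed level of the list was 3336 to 4835 units in the jejunum and 137020 to 140390 in the duodenum. Every pool lay at or below the set median for 13 of 24 genes in the jejunum and 4 of 24 in the duodenum. Ins2, insulin, was the 1 called of 4 measured islet genes, at 2.6, 2.6 and 3.6 units in jejunum pools and 2185, 1976 and 1646 in duodenum pools (-6.68 ± 0.47), while another Ins2 probe set differed by -0.04. Pdia2, a protein folding enzyme known from the pancreas, had 24.8, 12.8 and 22.2 units in jejunum pools, against 694, 662 and 559 in duodenum pools (-4.20 ± 0.38), and its other probe set differed by -0.17. The part of attached pancreas in these values, and in the other falls of the comparison, was not tested. Where jejunum means lie below the set median, the size of a difference depends on the offset.

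**Figure D4:**
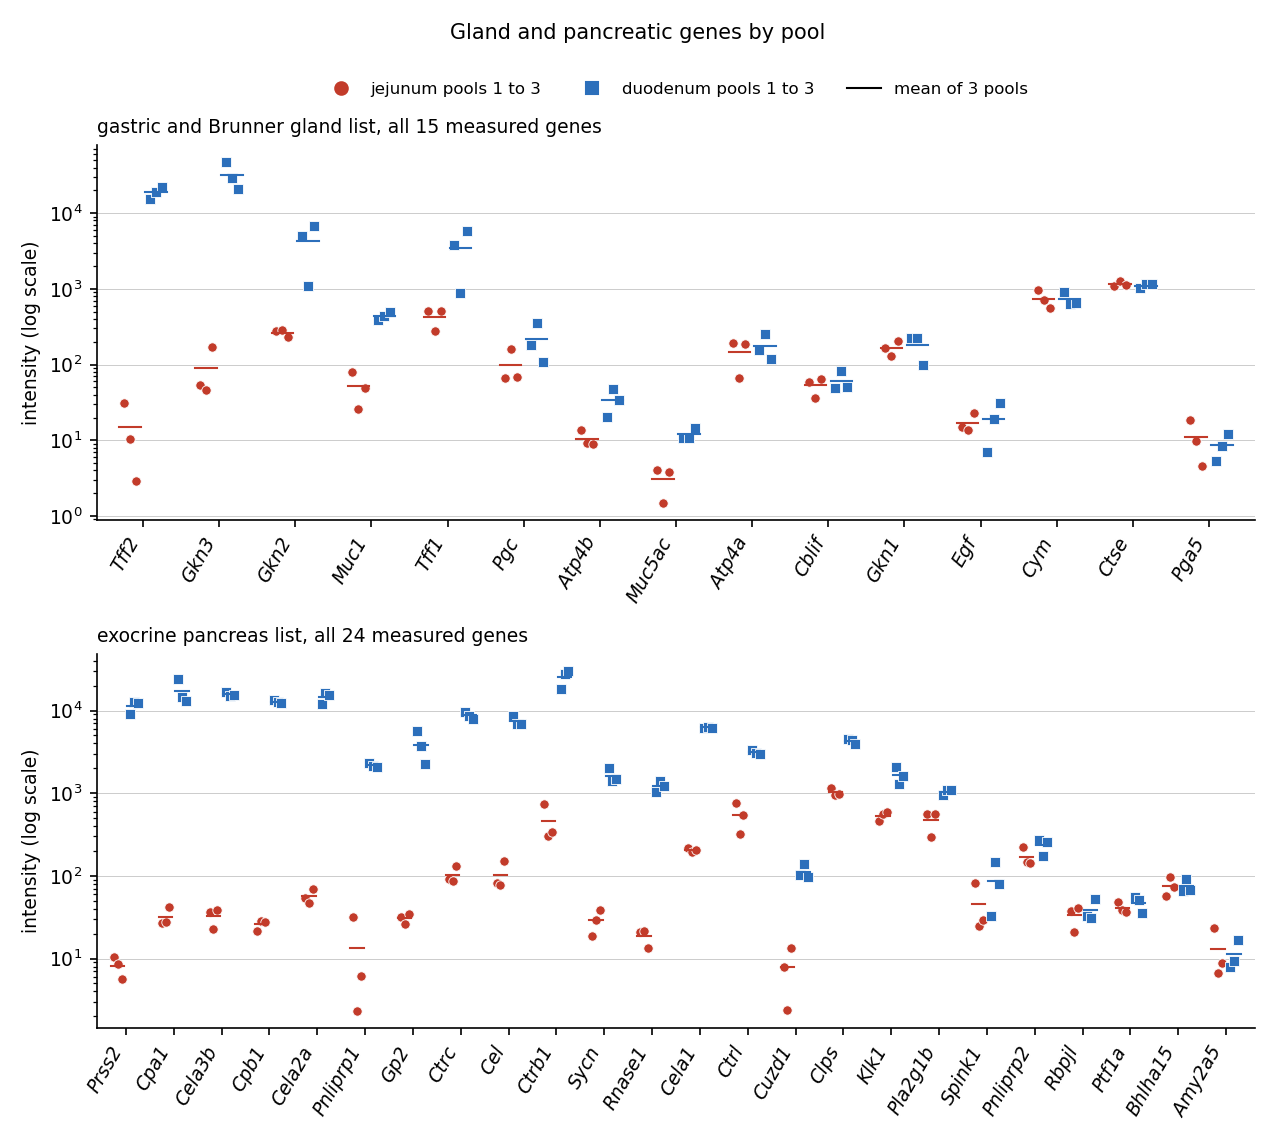
Intensity (y axis, log scale) of the 15 measured genes of the gastric and Brunner gland list (top) and the 24 of the exocrine pancreas list (bottom), each ordered by difference from the largest fall on the left; red circles are jejunum pools 1 to 3, blue squares duodenum pools 1 to 3, and bars mark the means. In the pancreas list 17 genes were called lower, while Ptf1a, Bhlha15 and Rbpjl show overlapping pools.

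Because these genes fell together, their promoter windows were read from RefSeq (GRCm38.p6), 250 bases before to 50 bases after the start. Windows were held for 15 of the 17 called pancreas genes and for 3 of the 5 called gland genes. In the pancreas the factor PTF1 is known to bind a pair of boxes, searched here on both strands as CACCTG and TTTCCCA, which do not overlap each other. The boxes were counted at any distance and in any order within a window. CACCTG occurred in 8 of the 15 windows, against 20.2% of all 32851 windows, and TTTCCCA in 5 of 15, against 8.06%. Both occurred in 3 of 15, against 1.61%, and these windows are shown with the boxes in capitals on either strand:
Prss2, chr6:41521526-41521825, plus strand: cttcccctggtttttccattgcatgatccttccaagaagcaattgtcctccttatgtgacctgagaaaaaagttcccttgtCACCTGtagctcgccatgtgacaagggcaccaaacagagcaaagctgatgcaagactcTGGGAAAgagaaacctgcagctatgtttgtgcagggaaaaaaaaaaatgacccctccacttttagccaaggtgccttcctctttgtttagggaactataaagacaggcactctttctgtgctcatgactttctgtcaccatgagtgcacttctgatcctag
Cela2a, chr4:141825956-141826255, minus strand: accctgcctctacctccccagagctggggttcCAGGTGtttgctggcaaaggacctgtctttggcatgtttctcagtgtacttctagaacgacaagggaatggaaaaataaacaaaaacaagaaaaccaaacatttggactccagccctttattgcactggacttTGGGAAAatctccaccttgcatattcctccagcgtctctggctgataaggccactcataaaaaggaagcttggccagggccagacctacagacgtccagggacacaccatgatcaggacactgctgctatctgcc
Cel, chr2:28563354-28563653, minus strand: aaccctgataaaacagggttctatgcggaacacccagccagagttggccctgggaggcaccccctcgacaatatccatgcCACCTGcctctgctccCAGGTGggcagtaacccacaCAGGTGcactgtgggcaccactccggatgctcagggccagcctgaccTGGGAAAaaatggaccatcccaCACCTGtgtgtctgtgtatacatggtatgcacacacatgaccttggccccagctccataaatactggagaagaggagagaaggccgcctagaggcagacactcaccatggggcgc
For the gastrokines the GATA box AGATAA was searched on both strands, since GATA factors are known in stomach and proximal gut. It occurred in 2 of the 3 windows, against 11.2% of all, and the gastrokine windows are shown because Gkn2 and Gkn3 lie next to each other on chromosome 6:
Gkn2, chr6:87373115-87373414, plus strand: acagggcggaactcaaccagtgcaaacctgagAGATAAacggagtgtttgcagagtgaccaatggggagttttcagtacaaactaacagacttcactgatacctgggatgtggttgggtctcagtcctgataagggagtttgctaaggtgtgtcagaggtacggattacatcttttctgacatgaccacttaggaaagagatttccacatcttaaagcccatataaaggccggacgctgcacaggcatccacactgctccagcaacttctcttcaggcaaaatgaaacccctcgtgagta
Gkn3, chr6:87388886-87389185, minus strand: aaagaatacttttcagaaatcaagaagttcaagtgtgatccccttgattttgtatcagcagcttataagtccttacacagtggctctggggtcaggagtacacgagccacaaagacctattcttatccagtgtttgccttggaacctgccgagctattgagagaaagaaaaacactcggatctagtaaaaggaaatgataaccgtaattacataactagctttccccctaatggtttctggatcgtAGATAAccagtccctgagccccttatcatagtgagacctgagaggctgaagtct
These matches describe the letters of the windows only. CACCTG and TTTCCCA began at bases 82 and 140 of the Prss2 window and at bases 33 and 166 of the Cela2a window. In the Cel window TTTCCCA began at base 164 and the nearest CACCTG at base 186.

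Secreted peptides of the epithelium differed gene by gene. Of 27 measured enteroendocrine genes, 1 was called. Neurotensin, Nts, a hormone released after fat, had 110.5, 133 and 110.4 units in jejunum pools and 6.8, 13.2 and 13.4 in duodenum pools (2.31 ± 0.33, adjusted p = 0.00129), with an ileum mean of 377. The duodenum values were dim, and another Nts probe set differed by 0.14 without a call. Hormones of the upper gut were not called: Gip had 836, 956 and 954 units in jejunum pools and 920.4, 1070.3 and 877 in duodenum pools (-0.06), secretin, Sct, differed by -0.13, Cck by -0.40 and Sst by 0.49. Chgb, a granule protein, differed by -0.89 just outside the threshold (adjusted p = 0.0586). Its 2 other probe sets differed by -0.12 and 0.32 without a call. Among the 7 measured Reg lectins, which are secreted by epithelium and by pancreas, 1 was called higher and 2 lower. Reg3a had 3936, 2898 and 2636 units in jejunum pools and 815, 359 and 426 in duodenum pools (2.60 ± 0.30). Reg1 had 6357, 3169.8 and 1823 units in jejunum pools and 15555, 20973 and 22689 in duodenum pools (-2.54 ± 0.34), and Reg2 had 79.7, 43.9 and 16.6 units in jejunum pools, against 307, 461 and 175 in duodenum pools (-2.43 ± 0.43). In both Reg1 and Reg2 jejunum pool 1 was the highest jejunum pool, and Reg2 lost its call without jejunum pool 3 or duodenum pool 2. Reg3b and Reg3g, antibacterial members, differed by -0.02 and 0.51, with adjusted p = 0.99 and 0.45. Of 8 measured Paneth cell genes Mmp7, which activates defensins, differed by 1.10 ± 0.24 (adjusted p = 0.0484), and this call was lost with any of the 6 pools left out. The summed Paneth level was 37395 to 47574 units in the jejunum and 20010 to 33896 in the duodenum. Of 13 goblet cell genes limma called 0, with 4 at an unadjusted p below 0.05, where 14.4% of all genes have one. The mucin Muc2 differed by 0.76 and Agr2, which helps fold mucins, by -0.89 (adjusted p = 0.19 and 0.136).

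Of 32 measured regional transcription factors, 1 was called in each direction. Osr2, an odd-skipped zinc finger protein, had 448, 1070.3 and 626 units in jejunum pools and 34.8, 28 and 42.7 in duodenum pools (3.76 ± 0.31, adjusted p = 2.72e-06). Its pools were separated by a wide gap. Pdx1, known from duodenum and pancreas, had 11, 15 and 4.5 units in jejunum pools and 96.5, 94.3 and 100.2 in duodenum pools (-2.13 ± 0.27, adjusted p = 0.000523). Factors with known roles along the gut axis were not called: Gata4 differed by -0.20, Gata6 by -0.86, Cdx1 by 0.27, Cdx2 by -0.20 and Hnf4a by -0.51. Of 33 measured Hox genes limma called 0, with 0 at an unadjusted p below 0.05. For 22 of the 33 both segment means lay below the set median, so that a change may not be visible. The 2 that differed most were Hoxc4 at 0.79 and Hoxd9 at -0.70, while another Hoxd9 probe set differed by 1.02 without a call. Of 41 genes of Wnt, Hedgehog, Bmp and Notch signalling and of 16 clock genes limma also called 0, with 6 and 2 at an unadjusted p below 0.05, shares near the 14.4% of all genes. Among clock genes Dbp differed most, with 167, 828 and 697 units in jejunum pools and 96, 232 and 208 in duodenum pools (1.38, adjusted p = 0.356). In a limma fit with a replicate block on pool number Dbp was called (adjusted p = 0.0176). Of 30 nuclear receptors 1 was called, Pparg, a fatty acid-sensing receptor, with 29.5, 63.5 and 17.8 units in jejunum pools, against 122, 122 and 137 in duodenum pools (-1.53 ± 0.33). That call held in 1 of the 6 fits that left out a pool, the one without jejunum pool 2.

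Marker lists of other cell types held few calls. In the 13 lists of adipose tissue, hepatocyte, erythroid, T cell, myeloid, mast cell, smooth muscle, neuron and glia, fibroblast, endothelium, goblet, tuft and stem cell genes limma called 0 of 147 measured genes, with 18 at an unadjusted p below 0.05 (12.2%, against 14.4% of all genes). The summed level of smooth muscle genes was 8560 to 11668 units in the jejunum and 8444 to 9841 in the duodenum, and Acta2, smooth muscle actin, differed by 0.84 (adjusted p = 0.0737). For adipose genes the sums were 448 to 488 units in the jejunum and 463 to 603 in the duodenum. Hepatocyte genes were dim: every pool lay at or below the set median for 9 of 10 genes in the jejunum and 10 of 10 in the duodenum. Stem cell and crypt genes summed to 2282 to 2964 units in the jejunum and 3822 to 4903 in the duodenum, and these ranges did not overlap although no gene was called. Olfm4, a stem cell marker in human intestine, had 1784, 1443 and 1124 units in jejunum pools and 3461, 2689 and 2414 in duodenum pools (-0.98, adjusted p = 0.242). This 1 gene made up a large part of the sums in both segments. Of the 10 measured genes of that list 3 were higher in the jejunum, among them Ephb3, which differed by 0.60 without a call. Of 25 cell cycle genes 1 was called, the spindle checkpoint kinase Bub1b, at -1.84 ± 0.39, and of 16 immediate early genes Jun, at -1.28 ± 0.27. Both lost their calls in more than 3 of the 6 fits that left out a pool. Of 15 B and plasma cell genes 1 was called. Jchain, which joins IgA molecules for transport into the lumen, had 1057, 542 and 838 units in jejunum pools and 2366, 2561 and 1722 in duodenum pools (-1.46 ± 0.22, adjusted p = 0.00241). The sum of that list was 20221 to 35310 units in the jejunum and 34196 to 45132 in the duodenum, with jejunum pool 1 inside the duodenum range. The part of these sums in any single difference was not tested.

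**Figure D5:**
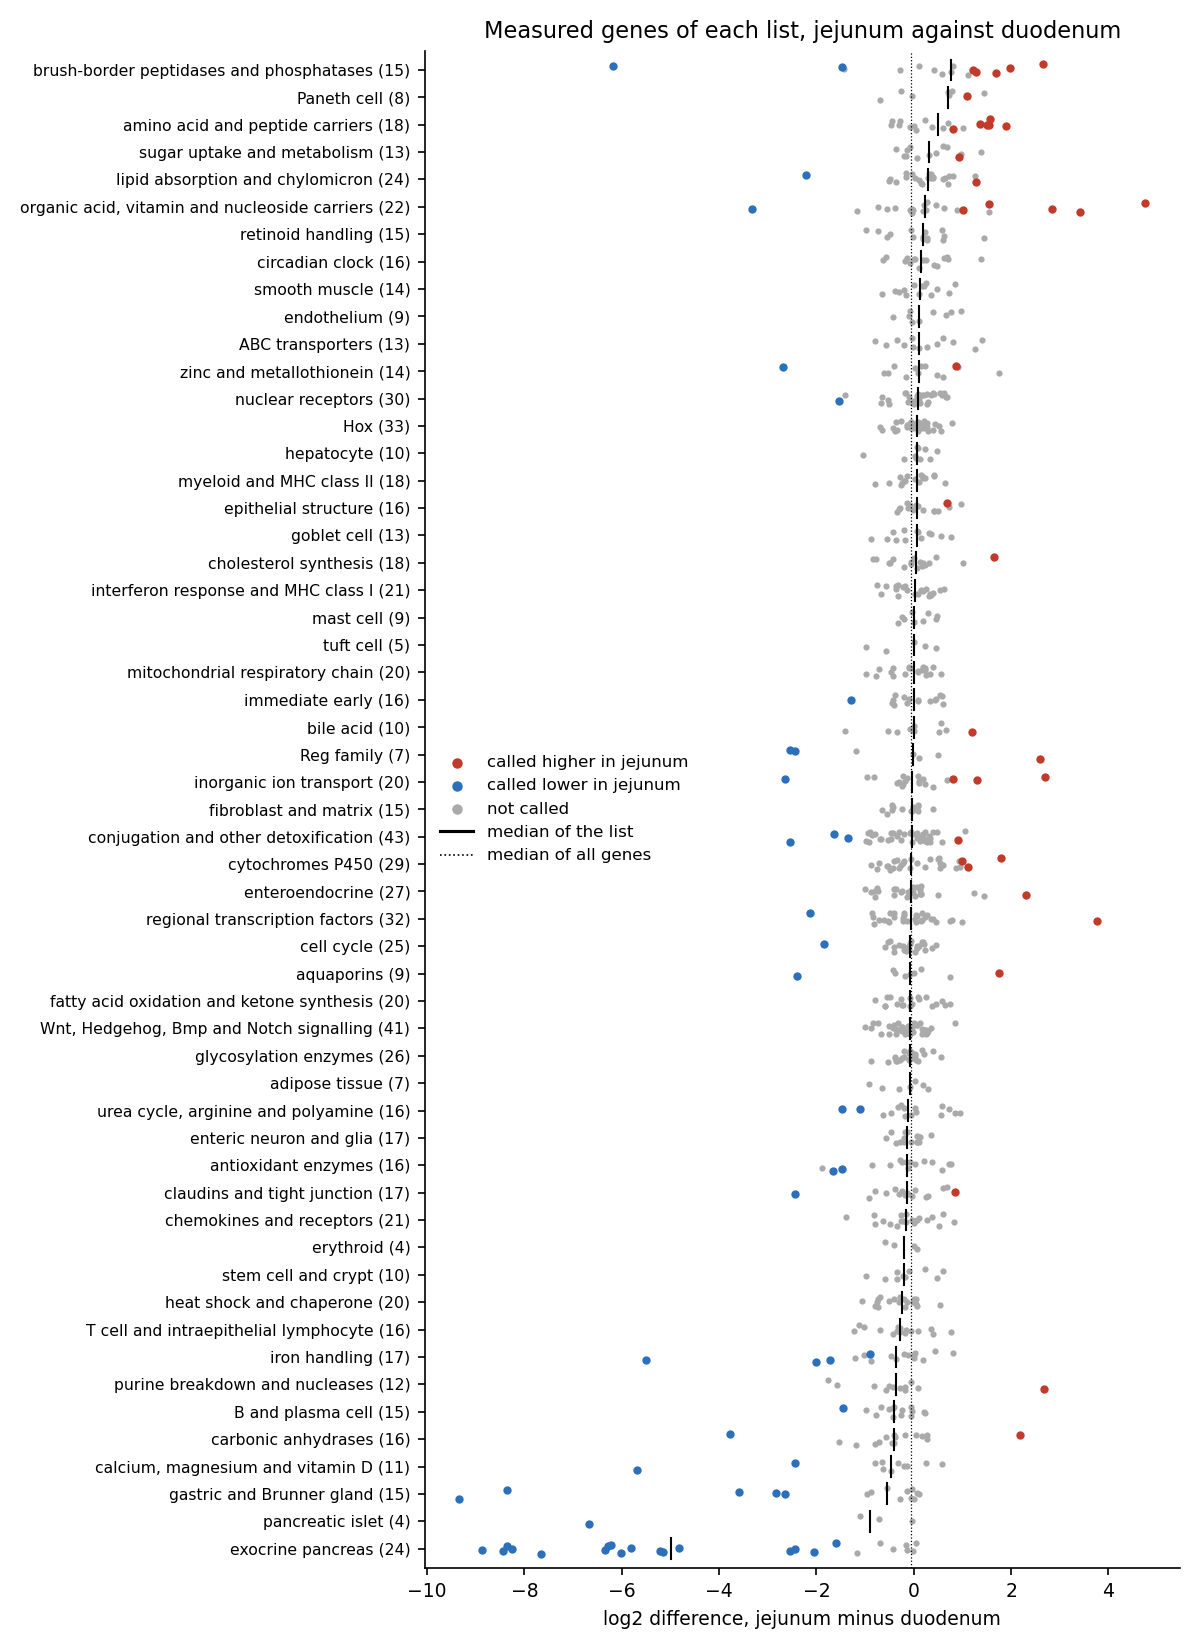
Log2 difference, jejunum minus duodenum (x axis), of every measured gene in 55 lists (y axis, number of measured genes in brackets), ordered by the list's median; red points were called higher in the jejunum, blue points lower, grey points were not called, bars mark list medians and the dotted line the median of all genes, -0.05. The exocrine pancreas list lies at -4.99, and the brush-border peptidase list, at the top, at 0.76.

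In 8 further lists, on retinoids, ABC transporters, fatty acid oxidation, the respiratory chain, glycosylation, interferon response, chemokines and heat shock, limma called 0 of 156 measured genes, with 33 at an unadjusted p below 0.05 (21.2%, against 14.4% of all genes). Their members nearest a call were Cox6c, a subunit of cytochrome oxidase, and Cx3cl1, a membrane-bound chemokine. Cox6c had 1582, 2031 and 1333 units in jejunum pools and 3611, 2718 and 3399.7 in duodenum pools (-0.98, adjusted p = 0.0611). Cx3cl1 had 954, 1306 and 1415 units in jejunum pools and 733, 688 and 616 in duodenum pools (0.82, adjusted p = 0.0972). Pools of the 2 segments did not overlap in either gene, as in 14.1% of all probe sets. The 2 other probe sets of Cox6c differed by -0.17 and 0.13 and those of Cx3cl1 by 0.12 and 0.25, none called. Abcg8, which with Abcg5 pumps sterols back into the lumen, had 1545, 3796 and 3199.5 units in jejunum pools, against 1969, 1453 and 459.5 in duodenum pools, and its pools overlapped.

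Several of the largest rises lay outside the lists. Pmp22, a membrane protein known from myelin, had 854, 2854 and 1686 units in jejunum pools and 91.6, 127 and 162 in duodenum pools (3.53 ± 0.33, adjusted p = 2.21e-05). Its 2 other probe sets differed by 0.01 and 0.18, neither called. Susd2, a membrane protein with a sushi domain, had 3206, 4814 and 5962 units in jejunum pools and 675, 487 and 910.5 in duodenum pools (2.73 ± 0.24, adjusted p = 9.42e-06). Tmem86a, an enzyme that breaks down lysoplasmalogens, had 2293, 3350.4 and 3089.9 units in jejunum pools, against 752, 326 and 331 in duodenum pools (2.68 ± 0.30). Each of these 3 probe sets kept its call with any single pool left out. Sgpl1, the lyase that ends sphingosine-1-phosphate signalling, had 1069, 1726 and 1332 units in jejunum pools and 366, 278 and 295 in duodenum pools (2.06 ± 0.19, adjusted p = 2.03e-05), and a second probe set was also called higher. The serine protease Prss30 had 655, 1058 and 1522 units in jejunum pools, against 226, 224 and 182 in duodenum pools (2.20 ± 0.23). Bcl2l15, of the Bcl2 family, had 469, 1623 and 1292 units in jejunum pools and 114, 128 and 223 in duodenum pools (2.62 ± 0.38), and jejunum pool 1 lay lowest of the jejunum pools. Its 2 other probe sets, neither called, differed by -0.87 and 0.31. Clca4a, Gp1bb and Fam222b differed by 1.82 ± 0.37, 2.49 ± 0.46 and 2.00 ± 0.43 and lost their calls in at least 4 of the 6 fits that left out a pool. Over all named genes 72 of 103 calls held in each of those 6 fits, 30 of 49 rises and 42 of 54 falls.

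Some called genes were read on more than one array set. Of the 239 called genes, 66 also had a probe set on another set, and in 44 of them all such probe sets differed in the same direction. Another set was called the same way for 11 and the opposite way for 0. The ileum, next along the gut, lay nearer the jejunum than the duodenum for 130 of the 213 probe sets called lower and for 57 of the 126 called higher. The colon lay nearer the jejunum for 110 of those called lower and 32 of those called higher. These counts describe means and were not tested.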

How the data were processed

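The arrays give one number per probe set, which the sources used here do not name; from their range they are taken as linear intensity. The authors had scaled these intensity values before they were deposited, with software not given in the sources used here: trimmed by 2% at each end, all 36 means fell close to 200. The values were used as log2(intensity + 16), an offset that shrinks differences of dim genes. limma 3.58.1 (R 4.3.3) fitted the 12 arrays of each set separately, with a mean per segment and a variance trend, so that all 4 segments share the estimate of spread, and 2-sided p-values were adjusted over the 3 sets at once. The 3 pools of a segment hold different mice, per the labels. The fit was also run on simulated data whose noise was independent between probe sets. Those data held no pool-wide shifts, so they do not bear on the moves seen when pools were left out.

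Of the probe sets tested, 29131 carried 1 gene symbol, 724 several and 6846 none, and 29086 matched a RefSeq gene by identifier. A gene was read from array set A, else B, else C, from its brightest probe set. Named were the 25 largest rises and 25 largest falls at 2-fold or more, every called member of the 55 lists, the 2 largest differences in lists with no call, and all members of 7 lists; other genes that were not called were chosen after their values were seen. The lists and the genes were chosen with earlier results of these data known, so no list was tested as a set. Samples were grouped by title. Alternatives covered offset, scaling, a filter on dim probe sets, variance trend, samples in the fit, a replicate block, array weights, left-out pools, the array with 2 segment names, 18S class, actin ratio, adjustment per set and the probe set that stands for a gene.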

Additional observations from a re-analysis of the deposited data

How the results depend on the processing

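The count of called probe sets, 339 with 126 higher and 213 lower in the jejunum, moved most with the pools used. Over the 6 fits that each left out a pool, the total ran over 184 to 854, the higher count over 67 to 438 and the lower count over 117 to 416. With the arrays of the 2 segments alone it was 180, with 61 higher and 119 lower. Among pools with high 18S signal it was 97, with 17 higher and 80 lower. With the actin ratio as a covariate it was 139, with 47 higher and 92 lower, and with the 18S class as a term 208, with 61 higher. Without the intensity trend it was 213, with 64 higher. Median centring gave 128 lower. The higher count was 200 with array weights, 217 with dim probe sets left out and 191 with each array set adjusted alone. Offsets of 1 and 64, quantile normalization and both other treatments of the array with 2 segment names left all 3 counts within 1.5 times. With that array as jejunum, 98 of the 103 named calls were kept, and Cpa1, Gkn3, Gp2, Slc19a3 and Clca4a lost theirs at adjusted p of 0.0864 to 0.567. The cause of these moves was not tested, except that fewer arrays or fewer probe sets enter some fits.

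The replicate block gave 296, with 111 higher and 185 lower, and kept 94 of the 103 named calls. Fam222b, Cdhr5, Mmp7, Slc7a9, Fth1, Slc12a7, Cyp2b10, Sult2b1 and Pparg lost theirs, at adjusted p of 0.0505 to 0.0848, and Dbp gained one. The labels divide the mice into pools before the segments are cut, so arrays of the same number may share mice, but they do not say so. Deviations of same-numbered pools 1, 2 and 3 correlated at -0.27, -0.23 and -0.08 on set A. The values were -0.08, -0.08 and 0.11 on set B and -0.26, -0.02 and -0.06 on set C. The numbers were not read as pairs. Reading a gene from a middle probe set, in order of difference, reversed the direction of 9 named calls. Further named calls had a probe set of the opposite direction that was not a middle one, such as Ace at -0.60 and Fth1 at 0.41. With the lower of the middle probe sets, Cubn was at -0.43, Dnase1 at -0.043, Cttnbp2nl at -0.78, Cyp27a1 at -0.27, Aqp1 at -0.19 and Stard4 at -0.039. With the upper one, Cttnbp2nl was at -0.78, Pnliprp1 at 0.43, Ncoa4 at 0.0065, Slc11a2 at 0.57 and Stard4 at -0.039. In 86 of the 213 falls and 10 of the 126 rises the lower segment mean lay below the median of its array set, and there the signal limits the size of a difference. Pools of 10 mice and 3 pools a segment limit the precision throughout.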

Other observations

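The called genes that follow were named by no list or rule and were chosen here after their values were seen. Papss2, which makes the activated sulfate that sulfotransferases use, had 1302, 1198 and 614 units in jejunum pools and 4089.8, 4513 and 5383 in duodenum pools (-2.21 ± 0.24, adjusted p = 0.000112). Epas1 encodes a hypoxia-inducible factor known to drive iron uptake genes in the duodenum, a link that was not tested here. Its probe set on array set B had 832, 822 and 541 units in jejunum pools and 2128, 1707 and 1540 in duodenum pools (-1.29 ± 0.23, adjusted p = 0.00882), while the dimmer one on set A that stood for the gene was not called (-0.89). Slc16a9, of the monocarboxylate carrier family, fell on both its probe sets, with 202, 173 and 153 units in jejunum pools and 1672, 1915 and 1570.1 in duodenum pools on set B. In the other direction, Aoc1, diamine oxidase, which breaks down histamine from food, had 9906, 9356 and 7302 units in jejunum pools and 3307, 3178 and 3839.7 in duodenum pools (1.35 ± 0.16). Fbln1, a matrix protein, was called higher on 3 of its 4 probe sets, one of them with 2685, 3703 and 4429.9 units in jejunum pools and 1226, 1078 and 1176 in duodenum pools.

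The largest rise of the 36701 probe sets was in one on array set A that is unnamed here. It had 2333, 5790.1 and 6608 units in jejunum pools and 94.4, 116 and 89.4 in duodenum pools (5.28 ± 0.34, adjusted p = 2.99e-07), and its ileum mean was 18359.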
